A study of Homo sapiens with 9 samples.

Results

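The ephrin, Slit-Robo and netrin guidance genes were followed in SNU-398 cells, 40 of the 60642 gene names in the count table, defined by their gene symbols. They were the 14 Eph receptors, the 8 ephrins, the 7 Slit and Robo genes and the 11 netrins, netrin-Gs and netrin receptors. SNU-398 is a mesenchymal-like hepatocellular carcinoma (HCC) cell line. RNA-seq was made from 3 libraries each of 3 stable lines, all made with lentivirus and selected with puromycin: the vector control (genotype wild type), EMX1-FL overexpression and EMX1-X1 overexpression. EMX1 is a homeobox transcription factor, EMX1-FL its full-length isoform, and EMX1-X1 an isoform with another terminal exon that lacks part of the homeodomain. Whether each line was a pool or 1 clone is not given in the sources used here, nor is it stated that the replicates came from separate cultures, so the p-values measure only the spread between these libraries.

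Guidance genes were named for steering growing axons, and the same proteins act on adhesion, cell shape and migration in other tissues. Eph receptors are receptor tyrosine kinases that bind ephrins on neighbouring cells. Class A ephrins are held to the membrane by a lipid anchor and mostly bind EphA receptors, while class B ephrins span the membrane and mostly bind EphB receptors. Slits are secreted ligands of the Robo receptors and often repel cells, and netrins attract through DCC and neogenin (NEO1) or repel through UNC5 receptors.

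Levels are given below as TPM (transcript abundance scaled by gene length and library) where genes are compared, and as CPM (counts scaled by the normalized library size) where libraries are compared. Each library had 21562703 to 25197970 counted read pairs. EMX1 counts were 218, 229 and 313 in the vector libraries, 5660, 3202 and 3145 with EMX1-FL and 3479, 7083 and 7133 with EMX1-X1, a log2 fold change of 4.04 ± 0.34 (SE) and 4.50 ± 0.35 over the vector control (adjusted p = 0.00121 and 0.00047). Counts per gene name do not part the isoforms, nor the introduced from the endogenous EMX1. The first principal component (39.6% of the variance) parted 5 libraries, called cluster A, from 4, called cluster B. Cluster B held 1 of 3 vector control libraries (replicate 3), 1 of 3 EMX1-FL libraries (replicate 1) and 2 of 3 EMX1-X1 libraries (replicates 2 and 3). This split comes from the data and matches no condition. In each group the cluster B libraries had the most EMX1. With EMX1-FL it was at 251 CPM in cluster B against 135 and 145 in cluster A. With EMX1-X1 it was at 294 and 288 against 145, and in the vector control at 12.9 against 9.3 and 10.0. Within the groups, cluster and EMX1 level cannot be told apart. Of 7 hepatocyte markers, 5 stayed under 1 TPM in every library, and ALB and APOA1 reached 2.77 and 1.03 TPM. Of the 4 mesenchymal markers, VIM lay between 702.8 and 1116 TPM, FN1 between 33.1 and 62.5, CDH2 between 9.18 and 18.1 and ZEB1 between 0.202 and 1.28. The 4 fibroblast markers summed to 471.7 to 981 TPM, most of it LUM (437.3 to 953.3). Of the 4 epithelial markers, EPCAM lay between 3.6 and 8.57 TPM and CDH1 between 0.903 and 2.39, while KRT19 stayed under 1 TPM and KRT18 was listed at 0. All 5 endothelial and 3 leukocyte markers stayed under 1 TPM in every library, and CD68 was listed at 0. The 7 neuron markers summed to 21.9 to 42.4 TPM per library, with ELAVL4 at 0 counts.

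The cells expressed receptors of all the families and few Slits. By the mean of each group ROBO1 had the highest level among the members, with 124, 118 and 79.4 TPM in the vector control, 88.2, 112 and 130 with EMX1-FL and 120, 107 and 91.7 in EMX1-X1. Its 3 groups overlapped, and in EMX1-X1 replicates 2 and 3 EPHB4 was above it. In the vector control the next levels were ROBO2 (55.2 ± 7.30 TPM, SD, n = 3), NEO1 (55.2 ± 2.92) and EPHB4 (54.2 ± 3.72), whose libraries overlapped in turn, and then ROBO3 (37.2 ± 3.97) and EPHA3 (37.0 ± 12.8), which also overlapped.

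**Figure D1:**
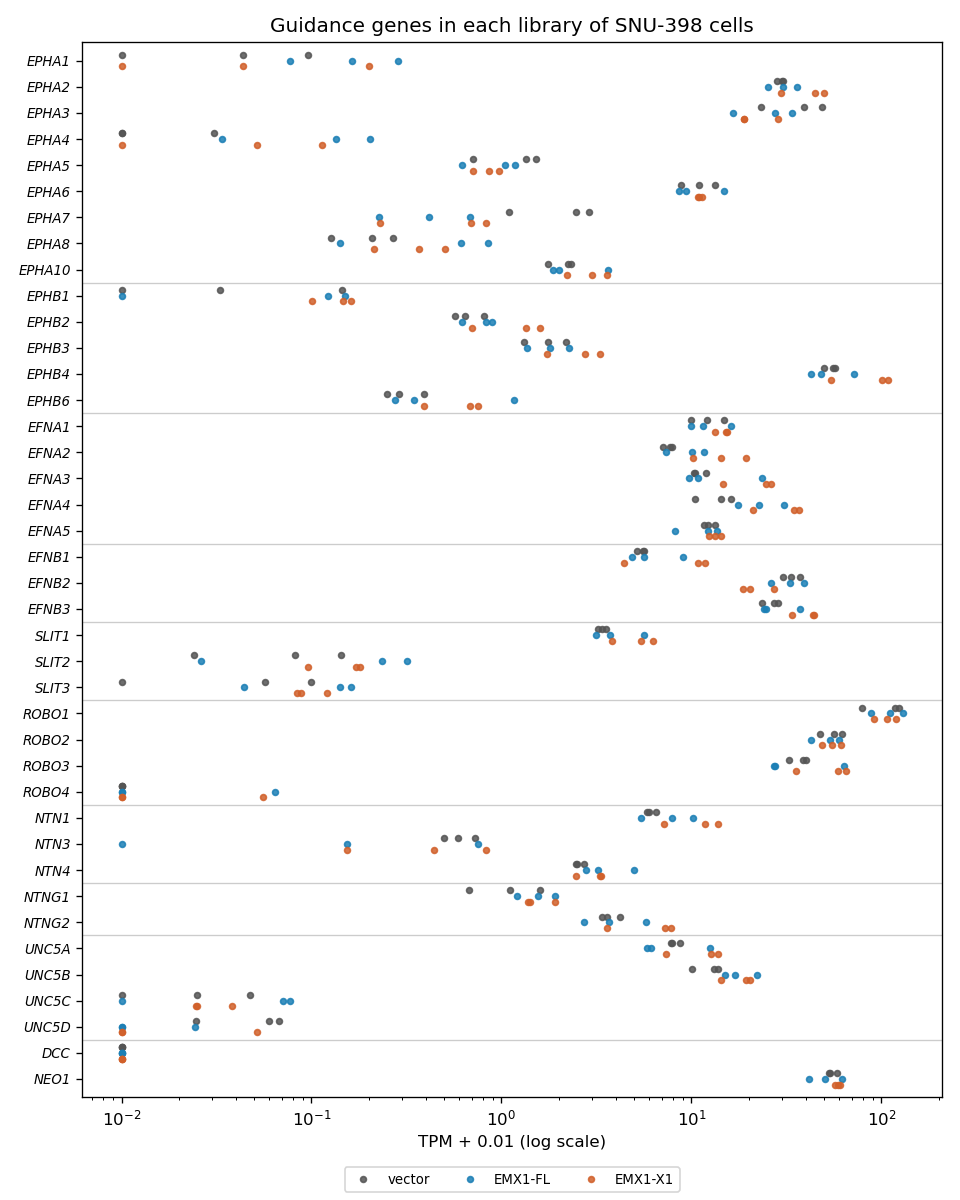
TPM of each of the 40 guidance genes (x axis, TPM + 0.01 on a log scale) in the 9 libraries, 1 point per library coloured by group, with lines between the roles. ROBO1, ROBO2, ROBO3, NEO1 and EPHB4 lie farthest to the right, DCC is at 0 in every library, and the EPHA7 points of both overexpression groups lie to the left of the 3 vector control points.

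Of the 14 Eph receptors, 11 had enough counts to be tested. They summed to 140 ± 15.5 TPM in the vector control, of which EPHB4 made up 39.1% ± 6.0, EPHA3 25.9% ± 6.50 and EPHA2 21.2% ± 1.68 (SD, n = 3). EPHB4, the main receptor of ephrin-B2 in blood vessels, had 55.4, 50.04 and 57.2 TPM in the vector control, 71.7, 42.5 and 47.9 with EMX1-FL and 54.4, 109 and 101 in EMX1-X1. The 2 EMX1-X1 libraries of cluster B were its highest, and the third lay within the vector control range. EPHA6 was at 11.1 ± 2.27 TPM in the vector control, and EPHA7, EPHA10, EPHB3 and EPHA5 were between 1.18 and 2.14. EPHB2, EPHB6, a receptor without kinase activity, and EPHA8 were between 0.191 and 0.663 TPM. EPHA1, EPHA4 and EPHB1 had 25, 24 and 35 counts over all 9 libraries and were not tested.

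All 8 ephrins were tested, and they summed to 122 ± 4.58 TPM in the vector control. The class B ephrins EFNB2 (33.7 ± 3.55 TPM) and EFNB3 (26.4 ± 2.54) led, and EFNB1 was lower at 5.44 ± 0.261. The 5 class A ephrins lay close together, from 7.56 ± 0.443 TPM for EFNA2 to 13.6 ± 2.95 for EFNA4. Of the exon bases of EFNA3 and EFNA4, 43.9% and 15.04% are shared with AL691442.2, and 36.4% of those of EFNB2 with AL138689.2. Read pairs on shared bases are left out of such counts, so these levels are uncertain.

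The Robo receptors summed to 200 ± 35.3 TPM in the vector control against 3.49 ± 0.0902 for their Slit ligands. SLIT1 made up 96.6% ± 2.66 of the Slit sum, SLIT2 stayed under 1 TPM, and SLIT3 (64 counts in all) and ROBO4 (4 counts) were not tested. ROBO2 had 61.8, 56.3 and 47.4 TPM in the vector control, 42.6, 53.4 and 60.2 with EMX1-FL and 61.3, 55.1 and 48.7 in EMX1-X1, with all groups overlapping. ROBO3 had 40.0, 38.9 and 32.7 TPM, then 63.6, 27.5 and 27.1, then 35.4, 65.2 and 58.9 in the same order. The 3 highest ROBO3 libraries were the cluster B libraries of the overexpression groups.

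Among the netrin receptors, NEO1 made up 72.8% ± 3.22 of the summed TPM in the vector control, UNC5B 16.4% ± 2.74 and UNC5A 10.7% ± 0.752. NEO1 had 58.5, 53.9 and 53.1 TPM in the vector control, 41.8, 50.5 and 62.2 with EMX1-FL and 56.8, 58.9 and 60.6 in EMX1-X1, and the groups overlapped. DCC, the classical netrin receptor, had 0 counts in every library, which allows up to 3 counts per library, or 0.121 to 0.139 CPM by counting error only. UNC5C and UNC5D had 16 and 13 counts over all libraries and were not tested. Of the netrins, NTN1 was at 6.11 ± 0.368 TPM, NTN4 at 2.55 ± 0.136 and NTN3 at 0.595 ± 0.111. The membrane-anchored netrin-Gs NTNG2 and NTNG1 were at 3.72 ± 0.422 and 1.11 ± 0.462 TPM.

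Against the vector control, EMX1-FL overexpression left 31 of the 32 members tested short of the study's threshold for DEGs, a change of at least 1 in log2 units, up or down, with an unadjusted p under 0.05. EPHA7, an EphA receptor expressed in the developing nervous system, was the 1 member past it, and it was lower in EMX1-FL. Over all genes tested, 2.42% passed. EPHA7 lies at chr6:93240020-93419559 on the minus strand (GRCh38), and none of its exon bases is shared with another gene. It had 135, 118 and 60 counts in the vector control against 10, 32 and 17 in EMX1-FL, or 5.78, 5.15 and 2.47 CPM against 0.444, 1.35 and 0.785. The groups did not overlap, and vector control 3 was the lowest of its group. Fewer cells with EPHA7 and less EPHA7 RNA per cell cannot be told apart in bulk samples. The log2 fold change was -2.37 ± 0.52 (SE, edgeR's quasi-likelihood test, p = 0.000736, Benjamini-Hochberg adjusted p = 0.167), and the two-sided exact permutation p was 0.1, the smallest that 3 libraries against 3 allow. The difference was -1.95 among the cluster A libraries and -1.66 among those of cluster B, in log2(CPM + 0.5). All 22 alternative fits kept EPHA7 past the study's threshold, with adjusted p from 1.84e-05 to 0.656.

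No member passed an adjusted p under 0.05 with that fold change in edgeR, while 0.07% of all genes did. DESeq2 passed 1 member, EPHA7 (adjusted p = 0.0016), and the share of all genes it passed is not given here. At an unadjusted p under 0.05 alone there were 2 members, EPHA7 and EFNA4, against 5.8% of all genes. EFNA4, a ligand of EphA receptors, had 5.48, 3.67 and 5.52 CPM in the vector control and 10.6, 5.94 and 7.39 with EMX1-FL. Its groups did not overlap, and its log2 fold change was 0.70 ± 0.29 (adjusted p = 0.809). Of the 32 members tested, only EPHA7 and EFNA4 had no overlap between the groups, as did 10.5% of all genes tested. Among the members with too few counts to be tested, EPHA4 (0, 1 and 0 counts in the vector libraries against 9, 6 and 1) and UNC5D (1, 4 and 4 against 0, 1 and 0) also had none on the CPM scale. The median log2 fold change was 0.01 over the members tested and 0.04 over all genes tested, with 17 members higher and 15 lower. The largest of the other estimates belonged to members with few counts, EPHA8 (1.36 ± 0.68), SLIT2 (1.19 ± 0.88) and NTN3 (-1.04 ± 0.93), with adjusted p of 0.922 or more. The receptors with the highest levels gave -0.05 ± 0.19 for ROBO1, -0.18 ± 0.16 for ROBO2, 0.00 ± 0.33 for ROBO3, -0.20 ± 0.16 for NEO1 and -0.10 ± 0.27 for EPHB4, none with p under 0.05. Without EMX1-FL replicate 1, NTN3 joined EPHA7 past the study's threshold, and without EMX1-FL replicate 3, EPHA8 and SLIT2 did. The share of all genes past it in these fits is not given here.

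**Figure D2:**
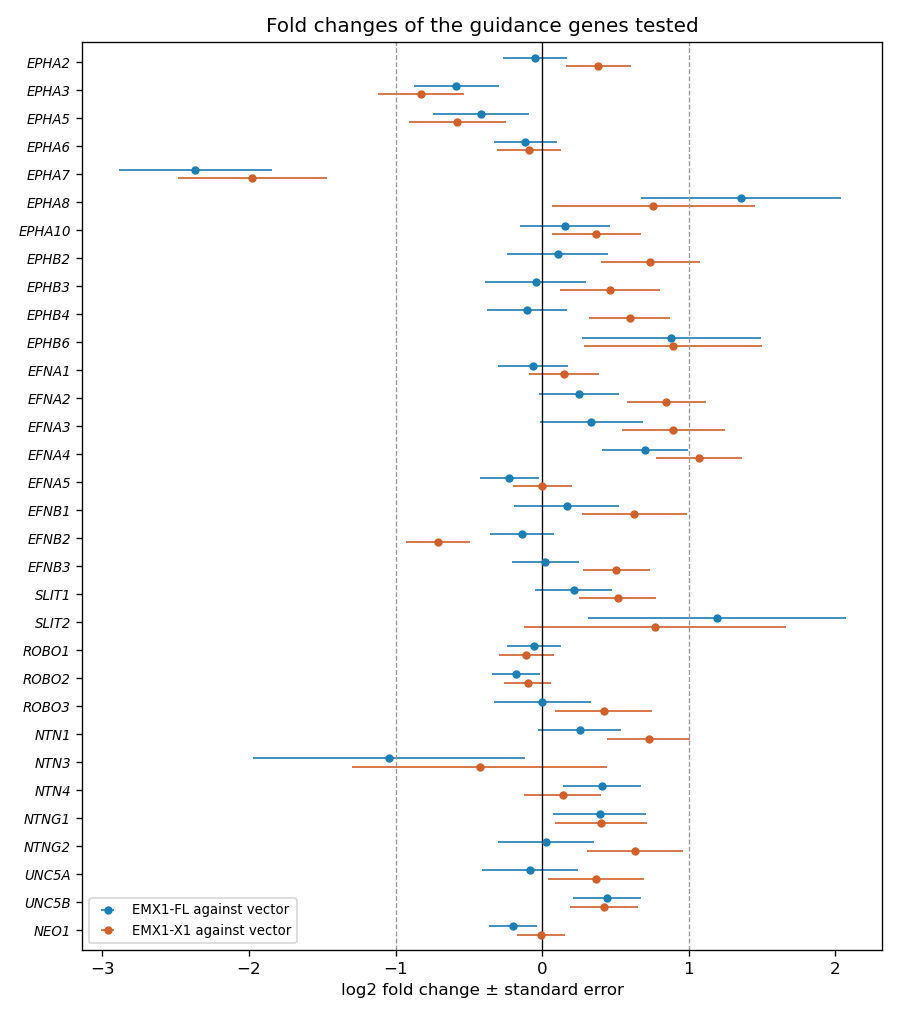
Log2 fold change (x axis) of the 32 guidance genes tested, as points with bars of 1 standard error, for EMX1-FL and EMX1-X1 against the vector control, with dashed lines at -1 and 1. EPHA7 stands at -2.37 and -1.98, and most ephrins lie to the right of 0 in EMX1-X1.

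Against the same vector control libraries, EMX1-X1 overexpression gave 2 members past the study's threshold, EPHA7, which was lower, and EFNA4, which was higher. Over all genes tested, 2.5% passed. EPHA7 had 39, 32 and 11 counts in EMX1-X1, or 1.62, 1.33 and 0.444 CPM, all below the 3 vector control libraries. The log2 fold change was -1.98 ± 0.51 (p = 0.00223, adjusted p = 0.424, exact permutation p = 0.1), with -1.49 among the cluster A libraries and -1.18 among those of cluster B. The call was lost with limma on log2(TPM + 1), where the log2 difference was -0.97, a scale that understates the change of low genes.

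EFNA4 (chr1:155063737-155069553, plus strand, GRCh38) had 7.03, 12.1 and 11.7 CPM in EMX1-X1, all above the vector control, with the 2 cluster B libraries highest. The log2 fold change was 1.07 ± 0.29 (p = 0.00336, adjusted p = 0.462, exact permutation p = 0.1). It was 0.59 among the cluster A libraries and 1.04 among those of cluster B. The fold change fell under the threshold with the library cluster as a covariate (0.85), with a GC offset (0.77), and without vector control replicate 2 (0.88), EMX1-X1 replicate 2 (0.94) or EMX1-X1 replicate 3 (0.95).

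No member passed the adjusted threshold in edgeR, against 0.00538% of all genes. DESeq2 passed 1 member, EPHA7 (adjusted p = 0.0324), and here too its share of all genes is not given. At an unadjusted p under 0.05 alone there were 9 members, 6 higher and 3 lower, against 8.11% of all genes. The lower members were EPHA7, EPHA3 and EFNB2. EPHA3, a receptor for class A ephrins, had 85.8, 72.4 and 46.8 CPM in the vector control, 29.8, 48.9 and 57.7 with EMX1-FL and 49.5, 32.5 and 33.6 in EMX1-X1, and vector control 3 overlapped both groups. Its log2 fold change was -0.83 ± 0.29 in EMX1-X1 (adjusted p = 0.552) and -0.59 ± 0.29 in EMX1-FL (adjusted p = 0.911). The EMX1-FL value had an adjusted p of 0.0211 with the library cluster as a covariate (-0.59) and of 0.0361 with a GC offset (-0.72), below the fold change threshold in both, and the EMX1-X1 value one of 0.0783 in either fit. Without vector control replicate 3 the EMX1-X1 value was -1.06, and without EMX1-X1 replicate 1 it was -1.07, both past the study's threshold. EFNB2, the ligand of EPHB4, had 40.8, 52.4 and 51.5 CPM in the vector control and 36.3, 24.6 and 27.5 in EMX1-X1, without overlap. Its log2 fold change was -0.71 ± 0.22 (adjusted p = 0.503, exact permutation p = 0.1).

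The 6 higher members were EFNA2, EFNA3, EFNA4, EFNB3, EPHB2 and NTN1. Thus 5 of the 8 ephrins, 4 of them higher, had p under 0.05, against 8.11% of all genes. EFNA3 had 5.44, 5.59 and 7.13 CPM in the vector control and 7.53, 12.6 and 13.7 in EMX1-X1 (log2 fold change 0.90 ± 0.35, adjusted p = 0.575). EFNA2 had 5.01, 4.80 and 5.89 CPM against 6.57, 12.4 and 9.33 (0.85 ± 0.27, adjusted p = 0.5255). EFNB3 had 23.4, 21.3 and 28.2 CPM against 28.8, 36.7 and 38.1 (0.51 ± 0.23, adjusted p = 0.609). The groups of these 3 ephrins did not overlap, and the EMX1-X1 library of cluster A was the lowest of its group in each. EPHB2 (0.74 ± 0.34, adjusted p = 0.612) and NTN1 (0.73 ± 0.28, adjusted p = 0.575) overlapped the vector control through that library. With a GC offset the EMX1-X1 log2 fold changes were 0.205 for EFNA2, 0.504 for EFNA3, 0.212 for EFNB3 and 0.297 for NTN1, each more than 1.5 times smaller, and 0.52 for EPHB2. In all, 7 members, all of them tested, had groups without overlap, against 14.7% of all genes: 5 higher (EFNA2, EFNA3, EFNA4, EFNB3 and SLIT1) and 2 lower (EPHA7 and EFNB2). Without EMX1-X1 replicate 1, the library of cluster A, 6 members passed the study's threshold (EFNA2, EFNA3, EFNA4, EPHA3, EPHA7 and EPHB2). The EMX1-X1 libraries left were then all of cluster B, against 1 of the 3 vector control libraries. Without vector control replicate 3, EFNA3 and EPHA3 joined EPHA7 and EFNA4, with only cluster A libraries left in the vector control. The share of all genes past the threshold in these fits is not given here, so the counts do not single out the members. The median log2 fold change was 0.41 over the members tested, with 23 higher and 9 lower, against 0.01 over all genes. By role it was 0.85 for the class A ephrins, 0.67 for the EphB receptors, -0.09 for the EphA receptors and -0.10 for the Robo receptors.

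**Figure D3:**
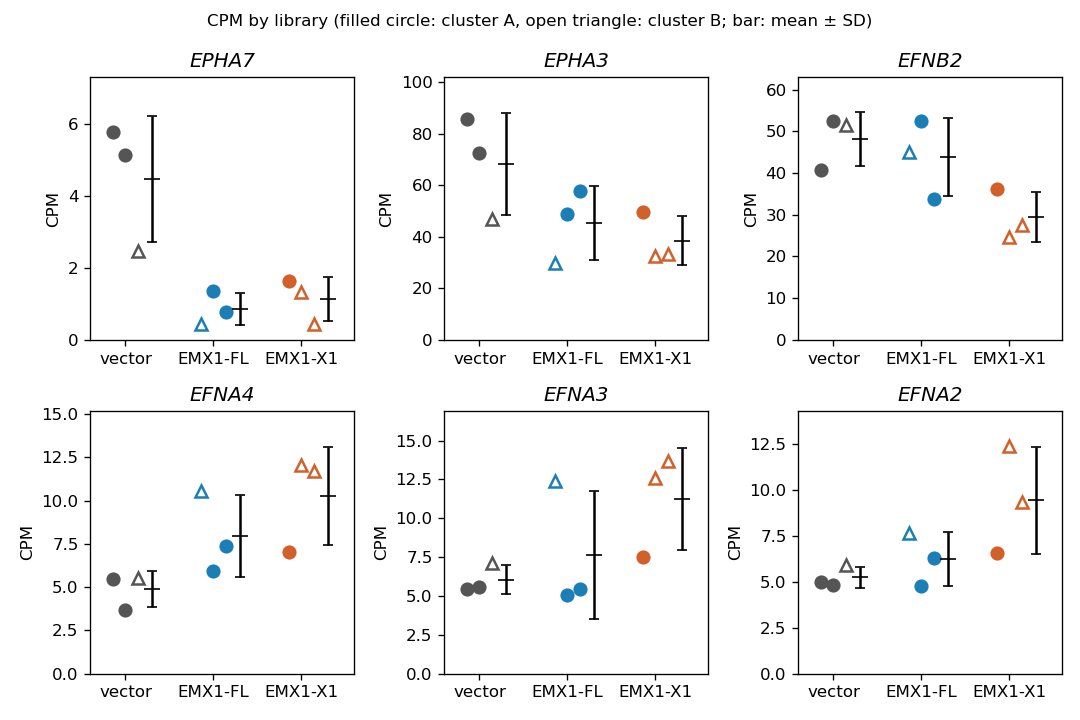
CPM (y axis, from 0) of EPHA7, EPHA3, EFNB2, EFNA4, EFNA3 and EFNA2 in each of the 9 libraries by group, filled circles for cluster A and open triangles for cluster B, with bars for the mean ± SD of 3 libraries. EPHA7 is lower in all 6 overexpression libraries than in the vector control, and EFNA4 is higher in all 6, while EFNA3 is highest in the 3 cluster B libraries of the overexpression groups.

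The other members passed no threshold against the vector control, and the values for both overexpression groups, which share the vector control libraries, stand here side by side. Among the EphA receptors, the log2 fold changes with EMX1-FL and with EMX1-X1 were -0.42 ± 0.33 and -0.58 ± 0.33 for EPHA5, and in the same order EPHA6 had -0.11 ± 0.22 and -0.09 ± 0.22, EPHA2 -0.05 ± 0.22 and 0.38 ± 0.22, and EPHA10 0.15 ± 0.31 and 0.37 ± 0.31. Among the EphB receptors, EPHB3 had -0.04 ± 0.34 and 0.46 ± 0.34, and EPHB6 0.88 ± 0.61 and 0.90 ± 0.61. The 4 EphB receptors tested all had estimates above 0 in EMX1-X1, as did 9489 of the 18574 genes tested. None of the 4 was past the study's threshold, and all had a GC content of at least 55%. With a GC offset their estimates were 0.52 for EPHB2, 0.043 for EPHB3, 0.21 for EPHB4 and 0.51 for EPHB6. Of the ephrins, EFNA1 had -0.06 ± 0.24 and 0.15 ± 0.24, EFNA5 -0.22 ± 0.20 and 0.00 ± 0.20, and EFNB1 0.17 ± 0.36 and 0.63 ± 0.36. SLIT1 had 0.21 ± 0.26 and 0.52 ± 0.26. UNC5B, a netrin receptor of blood vessels, had 18.6, 26.6 and 27.6 CPM in the vector libraries, 41.5, 27.5 and 30.0 with EMX1-FL and 25.8, 36.4 and 35.5 with EMX1-X1. Its groups overlapped, and its log2 fold change was 0.44 ± 0.23 in EMX1-FL and 0.42 ± 0.23 in EMX1-X1 (adjusted p = 0.946 and 0.643). UNC5A had -0.08 ± 0.33 and 0.37 ± 0.33, NTN4 0.41 ± 0.27 and 0.14 ± 0.27, NTNG1 0.39 ± 0.32 and 0.40 ± 0.32, and NTNG2 0.03 ± 0.33 and 0.63 ± 0.33.

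Between the isoforms, no member passed the study's threshold in EMX1-FL against EMX1-X1 in edgeR or DESeq2, while 1.42% of all genes did in edgeR. None passed the adjusted threshold (0.0% of all genes). At an unadjusted p under 0.05 there were 3 members, against 7.63% of all genes. EPHB4 was lower in EMX1-FL (-0.70 ± 0.27), as was EFNA2 (-0.60 ± 0.27), and EFNB2 was higher (0.57 ± 0.22), each with an adjusted p of 0.611. EFNA2 turned to 0.065 with a GC offset. No member had groups without overlap, against 8.38% of all genes. EPHA7 differed by -0.39 ± 0.54 (adjusted p = 0.775) and EFNA4 by -0.37 ± 0.29 (adjusted p = 0.64), so neither difference from the vector control was shown to depend on the isoform. Without EMX1-FL replicate 1, the cluster B library of that group, EFNA3 passed the adjusted threshold (-1.09, adjusted p = 0.0462), and EPHB4, EFNB3 and ROBO3 had adjusted p of 0.0467, 0.0483 and 0.0457 with log2 fold changes of -0.96, -0.73 and -0.96. The EMX1-FL libraries left were all of cluster A, against 2 of 3 EMX1-X1 libraries in cluster B. All of these genes were higher in cluster B, by 0.461 to 0.797, so isoform and cluster cannot be told apart in that fit. The share of all genes past the adjusted threshold in it is not given here.

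Guidance genes differ widely in base composition, and their levels moved with the library clusters. All 20 tested members with a GC content of at least 55% were higher in cluster B than in cluster A, by 0.328 to 0.88 in mean log2 CPM within groups, and 10 of the 11 members under 50% were lower, SLIT2 being the exception. Across the 32 members Pearson's r between GC content and the cluster difference was 0.819, and 0.764 across 17752 genes. These are correlations across genes that share the same libraries, and genes are not independent replicates. In EMX1-X1, the group with most libraries in cluster B, 19 of the 20 GC-rich members had a log2 fold change above 0 and their median was 0.56, against 0.34 over all genes of that GC content. In EMX1-FL 14 of the 20 were above 0, with a median of 0.13 against 0.01. The median GC content was 59.2% over the members tested and 48.1% over all genes tested. EPHA7 (37.9% GC) was lower in cluster B by 1.06, and EFNA4 (58.2%) was higher by 0.571. With a GC offset, the median log2 fold change of the 20 GC-rich members in EMX1-X1 was 0.196, with 15 above 0, and with the library cluster as a covariate it was 0.319, with 19 above 0. Over the 32 members tested the EMX1-X1 median was 0.0913 with the offset and 0.241 with the covariate.

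**Figure D4:**
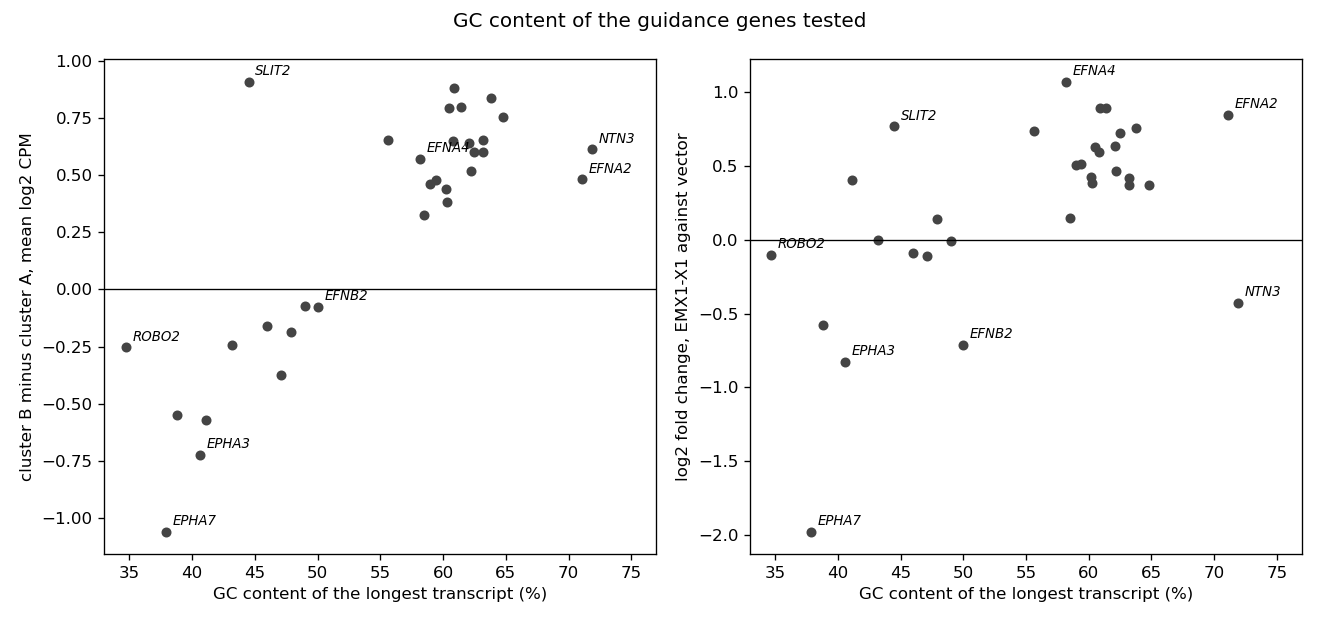
GC content in percent (x axis) of the 32 guidance genes tested against the mean log2 CPM difference of cluster B minus cluster A within groups (left) and against the log2 fold change of EMX1-X1 over the vector control (right), 1 point per gene. GC-rich members lie above 0 on the left, and EPHA7, at 37.9% GC, lies lowest in both.

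Partners and effectors of these receptors were read from a list of 62 adaptors, ligands and other signalling partners, of which 52 were tested. In EMX1-FL 2 passed the study's threshold (2.42% of all genes did) and both were higher: GRIP1, a scaffold that binds class B ephrins (1.58, 1.70 and 1.57 CPM in the vector control, 3.15, 3.29 and 3.79 with EMX1-FL, log2 fold change 1.07 ± 0.27, adjusted p = 0.27), and RGMA, a ligand of neogenin. RGMA had 0.685, 0.655 and 0.618 CPM in the vector control, 1.91, 1.43 and 0.739 with EMX1-FL and 1.00, 2.08 and 2.62 in EMX1-X1. It was higher in both, by 1.06 ± 0.47 (adjusted p = 0.845) and 1.54 ± 0.46 (adjusted p = 0.487), and was the 1 listed gene past the threshold in EMX1-X1 (2.5% of all genes). In EMX1-X1 GRIP1 had 2.75, 3.12 and 1.90 CPM, above the vector libraries (0.68 ± 0.27 in log2 units, adjusted p = 0.575). ABLIM1, an actin-binding protein named here after its values were seen, had 64.5, 62.7 and 66.7 CPM in the vector libraries, 74.4, 110 and 107 with EMX1-FL and 124, 101 and 106 with EMX1-X1, again without overlap. Its log2 fold change was 0.59 ± 0.18 in EMX1-FL and 0.77 ± 0.18 in EMX1-X1 (adjusted p = 0.472 and 0.378), short of the fold change threshold. In all, 7 of the 52 had no overlap with the vector control in EMX1-FL (5 higher, 2 lower), against 10.5% of all genes. In EMX1-X1 there were 7, all higher, against 14.7% of all genes. These counts are near those shares and do not single out the list. The RGMA call in EMX1-FL was lost in 10 of 22 alternatives. Between the isoforms no listed gene passed the study's threshold in edgeR or DESeq2. At an unadjusted p under 0.05 there were 4 of the 52 tested, near the 7.63% of all genes. The median log2 fold change of the list was 0.03 in EMX1-FL and 0.015 in EMX1-X1, near the 0.04 and 0.01 over all genes.

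EMX1 is a homeodomain protein, and homeodomains commonly bind sites with a TAAT core. Promoter windows of 300 bases (250 before to 50 after the start, RefSeq, GRCh38.p14) were found for 33 of the 40 members. Those of ROBO2, EPHB1 and EPHB6 lay at other starts, 404185, 197459 and 7695 bases from the start of the counted gene. The rest lay within 635 bases of it. TAATTA, which reads the same on both strands, was in the windows of 2 members (6.06%), EPHA5 and ROBO3, against 4.84% of 35116 windows. Its shorter core, TAAT or ATTA on the other strand, was in those of 11 members (33.3%), ROBO2 and EPHB6 among them, against 50.2% of all windows. The core holds no G or C, and most member windows were above the median GC content of all windows, 58.7%. These shares were not matched for base composition. The windows of the 2 members past the threshold, EPHA7 and EFNA4, and that of ROBO3 are shown because they differ in these letters, and the cores are in capitals. EPHA7 (chr6:93419510-93419809, minus strand) holds 2 cores just before its start, EFNA4 (chr1:155063490-155063789, plus strand) holds none, and ROBO3 (chr11:124865182-124865481, plus strand) holds 4, which overlap in pairs and include TAATTA. A match is a description of the sequence and not a bound site.
EPHA7: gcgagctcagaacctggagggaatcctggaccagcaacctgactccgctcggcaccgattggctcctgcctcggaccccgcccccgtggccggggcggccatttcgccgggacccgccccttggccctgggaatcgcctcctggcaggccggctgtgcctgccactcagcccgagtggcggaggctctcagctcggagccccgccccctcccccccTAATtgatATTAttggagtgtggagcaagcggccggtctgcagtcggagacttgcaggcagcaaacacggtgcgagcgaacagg
EFNA4: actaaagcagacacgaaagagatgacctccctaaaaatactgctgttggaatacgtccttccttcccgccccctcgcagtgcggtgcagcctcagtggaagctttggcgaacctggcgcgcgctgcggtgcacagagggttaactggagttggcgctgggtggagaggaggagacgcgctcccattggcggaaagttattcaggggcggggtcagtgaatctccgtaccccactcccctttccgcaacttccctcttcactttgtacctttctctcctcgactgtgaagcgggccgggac
ROBO3: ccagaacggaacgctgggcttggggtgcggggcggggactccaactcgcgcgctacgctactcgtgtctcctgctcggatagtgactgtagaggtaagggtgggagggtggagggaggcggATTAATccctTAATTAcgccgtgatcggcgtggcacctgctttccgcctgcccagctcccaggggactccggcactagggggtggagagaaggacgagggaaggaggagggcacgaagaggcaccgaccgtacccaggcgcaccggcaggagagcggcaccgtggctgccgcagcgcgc
Of these genes, EPHA7 was lower in both overexpression groups. EFNA4 was higher in both, past the study's threshold only in EMX1-X1, and ROBO3 passed no threshold in either. Whether the cores bear on these levels was not tested.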

How the data were processed

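RNA-seq libraries of SNU-398 cells (3 vector control, 3 EMX1-FL, 3 EMX1-X1) were assigned to groups from their titles. As deposited, the count table holds whole read pairs counted on each gene symbol, not normalized. The file header names featureCounts 2.0.1 with Ensembl release 99 of GRCh38, the submitters' processing notes list featureCounts 2.0.6 and STAR, and the study's methods name RSEM. Strand was not used. A second deposited table gives log2(TPM + 1), on a log2 scale, and was recomputed from counts and gene lengths to within 4.98e-06.

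The members and gene lists were chosen with earlier results of these data known. Of all genes, 18574 passed filterByExpr and entered the test, made with edgeR 4.0.16 under R 4.3.3 (TMM, quasi-likelihood test, group as the only term, 9 libraries, Benjamini-Hochberg adjustment per comparison). The model was also run on simulated counts that held no library cluster or GC effect, so that run does not show how the test behaves with these. Members past the threshold and the 5 with the highest mean TPM are given in every library, and the others by role. The alternatives were other normalizations and filters, limma 3.58.1 with a pseudocount of 1 or 0.1 on log2 TPM, DESeq2 1.42.0, a replicate block, the library cluster, and each library left out. A GC offset, from GENCODE release 29 transcripts, alone and with the block, was added after seeing the data. Counting sets the precision of low genes.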

Additional observations from a re-analysis of the deposited data

How the results depend on the processing

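EMX1 kept its direction and call under all 22 alternatives in both groups (log2 fold change 3.70 to 4.18 in EMX1-FL and 4.18 to 4.74 in EMX1-X1). For EMX1-FL against the vector control, the 1 member past the study's threshold became 3 with no filter on low counts (EPHA4, EPHA7 and EPHA8), 2 with no fold change threshold, and 1 to 3 when each library was left out. For EMX1-X1 the 2 members became 1 with limma on log2(TPM + 1), with the library cluster as a covariate, and with the GC offset alone or with the replicate block, 9 with no fold change threshold, and 1 to 6 when each library was left out. For EMX1-FL against EMX1-X1 the 0 members became 3 with no fold change threshold and 0 to 1 when each library was left out. The members past the adjusted threshold, 0 in each comparison, became 1 in EMX1-FL with DESeq2, no filter, the library cluster as a covariate, and the GC offset alone or with the block. In EMX1-X1 they became 1 with DESeq2 and 2 with no filter, and between the isoforms 0 to 1 when each library was left out. The listed partners and effectors called in EMX1-FL, 2, became 0 with limma on log2(TPM + 1). They became 1 with limma on log2(TPM + 0.1), the replicate block or the library cluster, and 3 with no filter on low counts (LRRC4C joined). They became 4 with no fold change threshold, and 1 to 2 when each library was left out. In EMX1-X1 the 1 became 0 with limma on log2(TPM + 1), 3 with no filter and 4 with no fold change threshold, and between the isoforms the 0 became 4 with no fold change threshold. EFNA2 between the isoforms turned from -0.60 to 0.065 with the GC offset and 0.062 with the block as well. The cause of these changes was not tested. With no fold change threshold, 5.8% of all genes passed in EMX1-FL, 8.11% in EMX1-X1 and 7.63% between the isoforms. The shares of all genes past the thresholds in the other alternatives are not given here, so these counts do not single out the members or the listed genes.

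Residuals of libraries with the same replicate number correlated between -0.522 and 0.29, and not above 0.1 in every pair of any comparison. Pairing by replicate number was thus not seen. With few libraries and a cluster split within the groups, such a check cannot exclude it. With the replicate block alone 1, 2 and 0 members passed the study's threshold in the 3 comparisons. The share of all genes past it in that fit is not given here. With 3 libraries per group, members with few counts (EPHA8, SLIT2, NTN3) had standard errors of 0.65 to 0.95, and a change of that size was not detectable in them.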
